A study of Rattus norvegicus with 20 samples.

Results

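Receptors that let neutrophils sense growth factors and chemoattractants were followed in rat blood before and after acetaminophen (APAP), on all 20 arrays of the series. The members are Csf3r, Cxcr1, Cxcr2, Fpr1, C5ar1, Csf2ra and Csf2rb, and every probe set whose platform annotation gives exactly 1 gene symbol equal to one of these 7 names was taken. This gave 6 probe sets, 1 each for 6 genes, among 31042 probe sets and 14217 annotated symbols, and Fpr1, the formyl peptide receptor, was not matched to a probe set and was not analysed here. A probe set is a group of short oligonucleotides on the Affymetrix rat expression array that together give 1 signal for a transcript.

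Male Wistar rats, an outbred stock, made up 4 groups with 5 arrays each, 1 array per blood sample. Susceptible rats postdose and susceptible rats predose were the animals with the highest serum alanine transaminase after APAP, and resistant rats postdose and resistant rats predose were those with the lowest. All rats received 1 oral dose of APAP, after a fast of 12 h, and postdose blood was taken 24 h after it, while predose blood was taken before a recovery of 1 week. No array held blood of rats given vehicle alone, so that APAP cannot be told apart from fasting, the earlier bleeding or the day, nor, by the methods, from the site of bleeding (retro-orbital plexus predose and inferior vena cava postdose, where the labels name the plexus for both). Red cells were lysed before RNA extraction. Signals were scaled to a median of 1000 on each array, so that a value of 1000 is the level of the middle probe set, and they are given linearly as "signal" or as log2. Predose and postdose arrays came from the same rats by the methods, but the labels do not tie a postdose to a predose sample, and these were treated as separate samples. Of the cell type markers measured, 9 of 10 neutrophil markers, 14 of 14 T cell, 5 of 5 B cell, 9 of 9 natural killer cell, 7 of 7 platelet, 6 of 6 erythroid, 9 of 11 monocyte and 7 of 9 eosinophil and basophil markers lay above the highest bacterial trp control probe set, taken as background, on every array. The actin control probe sets nearer the 3' end exceeded those nearer the 5' end by 0.66 to 0.95 on the log2 scale, a measure of RNA integrity.

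Neutrophils are made in the bone marrow under granulocyte colony-stimulating factor (G-CSF), whose receptor is encoded by Csf3r and signals through JAK kinases and STAT3. Granulocyte-macrophage colony-stimulating factor (GM-CSF) binds an alpha chain, Csf2ra, which pairs with a beta chain, Csf2rb, that is also used by the receptors of interleukin-3 and interleukin-5. Cxcr1 and Cxcr2 bind the CXC chemokines that draw neutrophils out of the marrow and into tissue, C5ar1 binds the complement fragment C5a, and these are receptors coupled to G proteins, as is Fpr1. In liver injury, neutrophils gather around dead hepatocytes, and their receptors decide which signals they can follow.

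In susceptible rats, 4 of the 6 receptors rose after APAP, namely Cxcr2, Csf3r, C5ar1 and Csf2rb, and in resistant rats 3 rose, namely Csf3r, Cxcr2 and C5ar1 (limma, Benjamini-Hochberg adjusted p under 0.05 over all probe sets). No receptor fell in either sub-group. Over all 30747 probe sets tested, 6.66% were called in susceptible rats (3.86% higher and 2.8% lower) and 5.11% in resistant rats (2.51% higher and 2.6% lower). At an unadjusted p under 0.05, 4 of 6 receptors passed in each sub-group, where 19% of all probe sets did in susceptible and 17.1% in resistant rats. The median log2 change of the 6 receptors was 1.05 in susceptible and 0.88 in resistant rats, where the median of all probe sets was 0.01 and -0.01. Cxcr1, whose signal was near background, supplied a middle value of both medians. Its changes, 0.97 in susceptible and 1.05 in resistant rats, did not pass. Postdose and predose signals did not overlap for 4 receptors in susceptible rats, a separation toward higher values that held for 3.93% of all probe sets, and for 4 receptors in resistant rats, where 3.24% of all probe sets showed it. A separation toward lower values held for none of the receptors, and for 2.91% of all probe sets in susceptible and 3.53% in resistant rats. Both changes are measured on RNA of mixed blood cells, in which more cells of a type and more RNA per cell cannot be told apart.

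**Figure D1:**
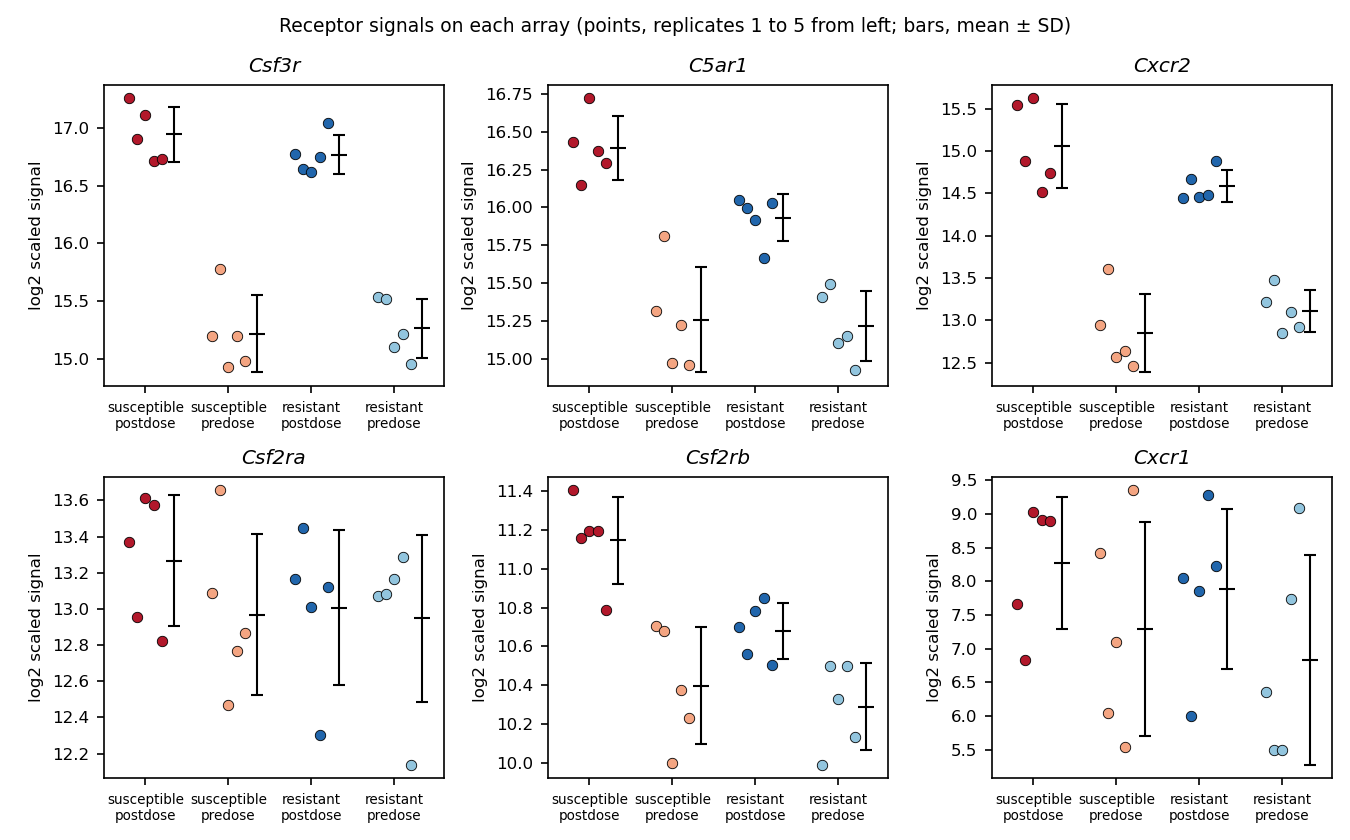
Log2 scaled signal (vertical axes) of 6 receptors on each of 20 arrays, by group (horizontal axes); points are arrays and bars show the mean ± SD of 5. Postdose points of Csf3r, Cxcr2 and C5ar1 lie above all predose points of the same sub-group, while those of Csf2ra and Cxcr1 mix with them.

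Csf3r, the G-CSF receptor, lay above the array median of 1000 on each of the 20 arrays, as did Cxcr2, C5ar1, Csf2ra and Csf2rb. Its signal was 156784, 122560, 141669, 107791 and 109063 on the susceptible postdose arrays, against 37507, 56118, 31268, 37583 and 32401 on the susceptible predose arrays. In resistant rats it was 112343, 102339, 100807, 109984 and 135162 postdose, against 47420, 46952, 35223, 37981 and 31761 predose. Every postdose array thus lay above every predose array, in either sub-group and across them. The log2 signal was 16.95 ± 0.24 in susceptible postdose and 15.22 ± 0.34 in susceptible predose blood (mean ± SD, n = 5 each), a change of 1.73 with a standard error of 0.17 and a limma adjusted p of 1.74e-05. This is a 3.31-fold rise, with a 95% confidence interval of 2.60 to 4.22. In resistant rats the log2 signal was 16.77 ± 0.17 postdose and 15.26 ± 0.26 predose (n = 5 each), and the rise was 2.83-fold with an interval of 2.22 to 3.61 (limma adjusted p = 5.99e-05). By p, Csf3r ranked 11 of 30747 probe sets in susceptible and 26 in resistant rats.

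Cxcr2, the CXC chemokine receptor that answers several neutrophil-attracting ligands, had the largest change of the 6 receptors in susceptible rats. Its signal was 47606, 30084, 50429, 23360 and 27423 on the susceptible postdose arrays, against 7900, 12459, 6092, 6390 and 5666 on the susceptible predose arrays. In resistant rats it was 22319, 26139, 22523, 22898 and 30127 postdose, against 9498, 11434, 7373, 8790 and 7748 predose. Replicates 1 and 3 of the susceptible postdose group were far above the others, and the remaining 3 lay within the range of the resistant postdose arrays. The log2 change was 2.21 in susceptible rats (standard error 0.23, limma adjusted p = 4.58e-05) and 1.48 in resistant rats (adjusted p = 9.80e-04). These are rises of 4.63-fold (95% confidence interval 3.30 to 6.51) and 2.78-fold (1.98 to 3.91). By the size of its change, Cxcr2 ranked 81 from the top of all probe sets tested in susceptible rats and 509 in resistant rats. Cxcr2 and Cxcr1 are neighbours on rat chromosome 9 with 0 annotated genes between them.

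The promoters of Csf3r and Cxcr2, whose profiles over the arrays were the most alike among the 6 receptors, are shown with that of Csf2ra, which was not called in either sub-group. RefSeq windows reach from 250 bases before the start of the gene to 50 bases after it, and were matched by symbol for 5 of the 7 genes. Capitals mark GAGGAA on either strand, a motif bound by PU.1, a transcription factor of myeloid cells. The shorter GGAA within it was not searched for and is not marked by itself, and it stands in the Cxcr2 window too.
Csf3r promoter (GRCr8, chr5:143582970-143583269, plus strand): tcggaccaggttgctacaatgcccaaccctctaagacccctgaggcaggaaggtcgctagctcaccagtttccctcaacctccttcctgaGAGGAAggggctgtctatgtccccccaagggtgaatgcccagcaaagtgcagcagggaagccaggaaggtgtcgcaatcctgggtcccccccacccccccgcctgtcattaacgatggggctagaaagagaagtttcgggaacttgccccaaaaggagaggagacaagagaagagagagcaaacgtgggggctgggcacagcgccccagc
Cxcr2 promoter (GRCr8, chr9:83178395-83178694, plus strand): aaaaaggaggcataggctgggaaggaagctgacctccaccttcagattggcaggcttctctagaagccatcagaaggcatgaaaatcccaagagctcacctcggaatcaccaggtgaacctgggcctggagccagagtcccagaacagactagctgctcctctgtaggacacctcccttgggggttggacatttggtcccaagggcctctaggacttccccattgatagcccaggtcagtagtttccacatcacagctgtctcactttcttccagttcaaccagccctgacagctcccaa
Csf2ra promoter (GRCr8, chr14:118068-118367, minus strand): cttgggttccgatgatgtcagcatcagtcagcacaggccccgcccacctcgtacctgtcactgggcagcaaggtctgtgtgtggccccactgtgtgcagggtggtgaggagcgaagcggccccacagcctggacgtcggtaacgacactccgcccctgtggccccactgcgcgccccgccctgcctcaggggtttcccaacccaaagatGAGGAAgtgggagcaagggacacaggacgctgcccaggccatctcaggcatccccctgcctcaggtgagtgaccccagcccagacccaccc
GAGGAA stood once in the Csf3r window, starting 160 bases before the start of the gene, and once in the Csf2ra window, 41 bases before it. It was not in the Cxcr2 window. Of 27457 rat promoters of this length, 27.5% hold this motif on either strand. TTGCNNAA, a motif of C/EBP factors that was searched on both strands and does not overlap GAGGAA here, stood in none of the 3 windows and in 10.5% of all promoters. These letters are a description of the windows, and no factor was measured on them.

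C5ar1, the receptor of the complement fragment C5a, rose in both sub-groups. Its signal was 88529, 72560, 108030, 84697 and 80161 on the susceptible postdose arrays, against 40751, 57583, 32201, 38232 and 31877 on the susceptible predose arrays. In resistant rats it was 67818, 65404, 61814, 52049 and 66927 postdose, against 43487, 46105, 35288, 36340 and 31142 predose. The lowest postdose array of each sub-group was above its highest predose array, in resistant rats by a small margin. The rise was 2.20-fold in susceptible rats, with a 95% confidence interval of 1.74 to 2.78 (log2 change 1.14, limma adjusted p = 3.54e-04). It was 1.64-fold in resistant rats, with an interval of 1.30 to 2.08 (log2 change 0.72, adjusted p = 0.0133). With a block for the replicate number in the limma fit, the call in resistant rats was lost (adjusted p = 0.0743).

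Csf2rb, the beta chain shared by the receptors of GM-CSF, interleukin-3 and interleukin-5, passed the test in susceptible but not in resistant rats, and the difference between the 2 changes did not pass (limma adjusted p = 0.793). Its signal was 2705, 2283, 2344, 2342 and 1765 on the susceptible postdose arrays, against 1668, 1642, 1024, 1329 and 1202 on the susceptible predose arrays. In resistant rats it was 1664, 1510, 1761, 1844 and 1451 postdose, against 1019, 1447, 1286, 1447 and 1125 predose. Signals did not overlap in either sub-group, but in resistant rats the lowest postdose and the highest predose array differed by less than 5 units of signal. The log2 change was 0.75 in susceptible rats (1.68-fold, 95% confidence interval 1.35 to 2.09, limma adjusted p = 0.00543). It was 0.39 in resistant rats (1.31-fold, 1.05 to 1.63, adjusted p = 0.174). With only the 10 susceptible arrays in the fit, the call in susceptible rats was lost (adjusted p = 0.0545).

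Csf2ra, the GM-CSF binding chain that pairs with Csf2rb, did not pass the test in either sub-group. Its signal ranged from 7258 to 12526 (median 10597) on susceptible postdose arrays, against 5659 to 12897 (median 7474) on susceptible predose arrays. In resistant rats it ranged from 5046 to 11160 (median 8898) postdose, against 4512 to 9976 (median 8670) predose, so that all 4 groups overlapped. The log2 change was 0.30 in susceptible rats, with a 95% confidence interval of -0.26 to 0.85 (limma adjusted p = 0.610). It was 0.06 in resistant rats, with an interval of -0.49 to 0.61 (adjusted p = 0.948), and it was -0.14 without replicate 5 of the resistant predose group, the lowest of all arrays for this gene. These intervals hold no rise as large as those of Csf3r or Cxcr2, but they do hold rises of the size measured for Csf2rb.

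Cxcr1, the neighbour of Cxcr2, was near background. Its signal was 114 to 525 on susceptible postdose arrays, against 46.9 to 651 on susceptible predose arrays, and 64.4 to 624 on resistant postdose arrays, against 45.1 to 543 on resistant predose arrays. No array brought it to the median of 1000, and on 9 of 20 arrays it was at or below the highest trp control of the same array. Its log2 changes of 0.97 in susceptible (95% confidence interval -0.75 to 2.70) and 1.05 in resistant rats (-0.68 to 2.77) were smaller than the spread (limma adjusted p = 0.588 and 0.590), and the intervals hold no change as well as changes as large as those of Cxcr2.

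**Figure D2:**
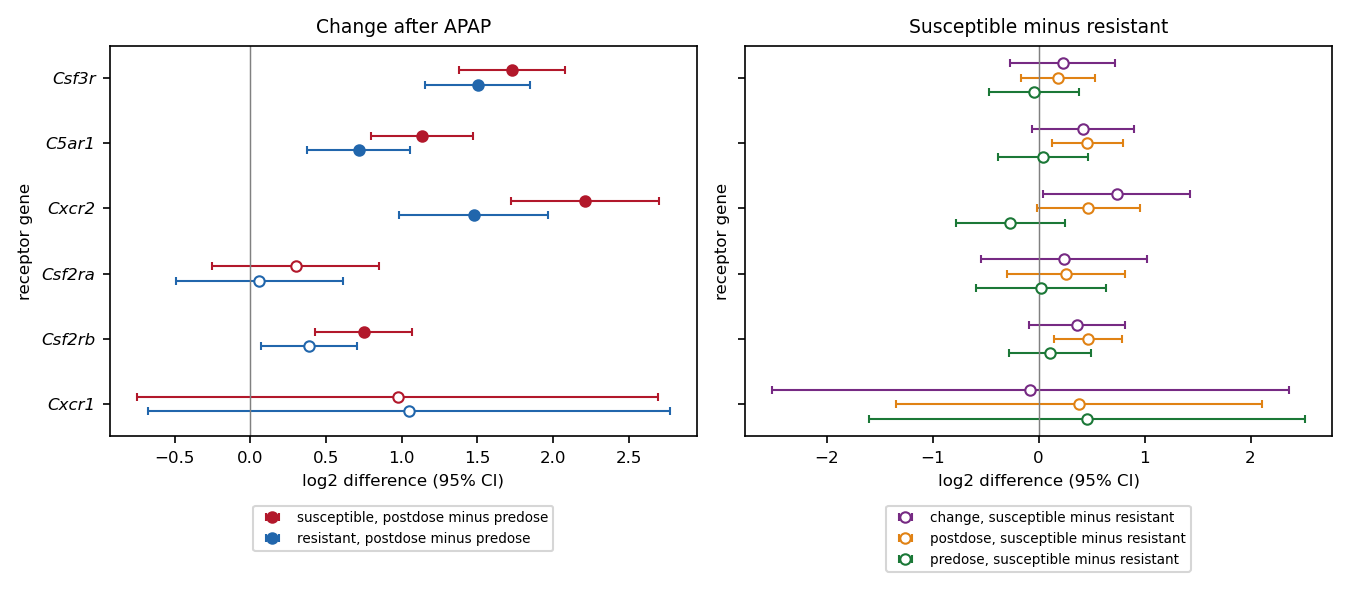
Log2 differences with 95% confidence intervals (horizontal axes) of 6 receptors (vertical axes): changes after APAP in susceptible and resistant rats at left, and differences between susceptible and resistant rats at right. Filled points passed an adjusted p under 0.05, which holds for 4 changes in susceptible rats, 3 in resistant rats and none of the differences between the sub-groups.

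The sub-groups were compared directly to see whether these receptors separate susceptible from resistant rats. None of the 6 passed before dosing (0.00329% of 30416 probe sets tested did), after dosing (0.143% of all probe sets, 0.124% higher and 0.0195% lower in susceptible rats) or in the difference between the changes (0% of all probe sets). Before dosing, the 6 log2 differences, susceptible minus resistant, lay between -0.27 for Cxcr2 and 0.46 for Cxcr1 (limma adjusted p = 0.9998 for each), and 0 had an unadjusted p under 0.05, where 3.74% of all probe sets did. None separated the predose groups, as 0.243% of all probe sets did toward higher and 0.286% toward lower values in susceptible rats. For Csf3r this difference was -0.05, with a 95% confidence interval of -0.47 to 0.38.

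After dosing, all 6 receptors had a higher mean in susceptible than in resistant rats, with a median log2 difference of 0.42, where that of all probe sets was -0.0026. Cxcr1, near background, supplied a middle value of this median (0.38, limma adjusted p = 0.933). At an unadjusted p under 0.05, 2 of 6 passed, where 9.18% of all probe sets did. Csf2rb was higher by 0.47 (1.38-fold, 95% confidence interval 1.11 to 1.72, unadjusted p = 0.00651, limma adjusted p = 0.284). C5ar1 was higher by 0.46 (1.38-fold, 1.09 to 1.74, unadjusted p = 0.0105, adjusted p = 0.338), and its lowest susceptible postdose array, at 72560, was above its highest resistant postdose array, at 67818, a separation toward higher values that 1.56% of all probe sets showed (0.673% toward lower values). Cxcr2 was higher by 0.47 (adjusted p = 0.562), with groups that overlapped, and Csf3r by 0.18 (adjusted p = 0.810). The order of the 4 group means was thus susceptible postdose, resistant postdose and then both predose groups for each of the 6 receptors, and neither the postdose nor the predose neighbours differed beyond the test's threshold. The step from predose to postdose did not pass for Cxcr1 or Csf2ra in either sub-group, nor for Csf2rb in resistant rats.

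The difference between the changes, susceptible minus resistant, was positive for 5 of 6 receptors. It was largest for Cxcr2, at 0.74 on the log2 scale with a 95% confidence interval of 0.04 to 1.43 (unadjusted p = 0.0387, limma adjusted p = 0.694), and 1 of 6 receptors had an unadjusted p under 0.05, where 6.9% of all probe sets did. For Csf3r it was 0.23, with an interval of -0.27 to 0.72 (adjusted p = 0.911). The 2 changes and the postdose difference share arrays, so that these values are not independent of each other.

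Among the genes listed as ligands of the members, Fpr1 included, only Cxcl2 and Anxa1 passed in susceptible rats and only Anxa1 in resistant rats. Of 12 genes of this list on the array, 2 rose in susceptible rats and 1 in resistant rats, and none fell. For this list and those below, the shares of all probe sets called in susceptible rats were 3.86% higher and 2.8% lower. In resistant rats they were 2.51% and 2.6%. Cxcl2, a chemokine that binds Cxcr2, had a log2 signal of 15.05 ± 0.97 in susceptible postdose and 13.59 ± 0.63 in susceptible predose blood (SD, n = 5 each), a rise of 1.46 (limma adjusted p = 0.0366). In resistant rats Cxcl2 stood at 13.20 ± 0.52 postdose and 13.93 ± 0.38 predose (SD, n = 5 each), a difference of -0.72 that did not pass (adjusted p = 0.395), and the difference between the changes had an adjusted p of 0.342. Anxa1, which encodes annexin A1, a protein whose fragments bind formyl peptide receptors, rose by 0.99 (adjusted p = 2.50e-04) in susceptible animals and by 0.77 (adjusted p = 0.00220) in resistant animals. It was listed for Fpr1, which was not analysed here. Cxcl1, another ligand of Cxcr2, Csf3, which encodes G-CSF, and Csf2, which encodes GM-CSF, were near background and did not pass in either sub-group. Cxcl1 was at or below the highest trp control on 12 of 20 arrays, all 5 resistant postdose arrays among them, Csf3 on 6 and Csf2 on 8. Pf4, a chemokine of platelets that was in this list but is not an established ligand of the members, had a mean log2 signal of 18.84 and did not pass.

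Receptors of related families moved both ways. Of 10 on the array, 3 rose and 3 fell in susceptible rats, and 3 rose and 1 fell in resistant rats. Ltb4r, the receptor of the chemoattractant leukotriene B4, rose by 2.68 on the log2 scale (limma adjusted p = 0.00187) in susceptible animals and by 1.84 (adjusted p = 0.0267) in resistant animals. Ptafr, the receptor of platelet-activating factor, rose by 1.60 (adjusted p = 1.31e-04) in susceptible animals and by 0.91 (adjusted p = 0.0111) in resistant animals, and its other probe set had changes of 2.12 (adjusted p = 0.00274) and 0.59 (adjusted p = 0.498). Cxcr3, a receptor of activated T and natural killer cells, rose in both as well, by 0.49 in susceptible and 0.80 in resistant rats. Cxcr4, the chemokine receptor that holds neutrophils in the bone marrow, fell by 0.53 (adjusted p = 0.00882) in susceptible animals and by 0.63 (adjusted p = 0.00322) in resistant animals, and its other probe sets fell too. Csf1r, the growth factor receptor of monocytes, fell by 0.89 in susceptible rats (adjusted p = 0.0168), where C3ar1, the receptor of the complement fragment C3a, fell by 1.04 (adjusted p = 0.0238), and neither passed in resistant rats. Il3ra, the alpha chain that uses Csf2rb for interleukin-3, had changes of 0.10 and -0.06 (adjusted p = 0.835 and 0.923).

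Downstream of the receptors, 6 of 25 signalling genes on the array rose in susceptible rats and 1 in resistant rats, and none fell. Over all probe sets tested, 3.86% were called higher in susceptible and 2.51% in resistant rats. Those in susceptible rats were Jak2, a kinase bound to the GM-CSF and G-CSF receptors (log2 change 0.40, limma adjusted p = 0.0357), Stat3 (0.68, adjusted p = 0.00866) and Stat5b (0.68, adjusted p = 0.00988), transcription factors that these kinases activate, Cish (1.60, adjusted p = 0.00402) and Socs3 (1.43, adjusted p = 0.0268), feedback inhibitors of the same pathway, and Fgr, a Src family kinase of myeloid cells (0.80, adjusted p = 0.0178). In resistant rats the gene was Vav1, an exchange factor for Rac (0.41, adjusted p = 0.0249). The difference between the changes had an adjusted p of 0.528 or more for these 7 genes. The other probe set of Stat3 rose in both sub-groups, by 0.69 (adjusted p = 0.00735) in susceptible animals and 0.60 (adjusted p = 0.0211) in resistant animals. The median change of the 25 genes was 0.30 in susceptible and 0.06 in resistant rats.

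Of 7 transcription factors of granulocytes, Cebpd, which is induced by inflammatory signals, rose by 2.19 (limma adjusted p = 5.84e-05) in susceptible animals and by 1.97 (adjusted p = 1.72e-04) in resistant animals. Klf5 rose in susceptible rats by 1.38 (adjusted p = 0.0176), while its value in resistant rats was 1.17 (adjusted p = 0.0517), where another of its probe sets passed (2.08, adjusted p = 0.0417). The remaining Klf5 probe sets changed by 1.58 (adjusted p = 0.201) and -0.89 (adjusted p = 0.465) in resistant rats. None of the other Klf5 probe sets passed in susceptible rats (adjusted p = 0.128 to 0.358). Runx1 fell by 0.47 in resistant rats (adjusted p = 0.0442). The other 4, Cebpa, Cebpb, Cebpe and Gfi1, did not pass in either sub-group. Of 11 effector genes of neutrophils, 5 rose in susceptible and 3 in resistant rats, and none fell. In both sub-groups these included Alox5ap, the protein that presents arachidonic acid to 5-lipoxygenase, with log2 changes of 1.30 and 1.13 in susceptible and resistant rats, Ncf4, a subunit of the NADPH oxidase, with 0.997 and 0.815, and Padi4, an enzyme that citrullinates histones, with 0.85 and 1.01. Itgam, the integrin alpha M chain, and Alox5, the lipoxygenase itself, rose in susceptible rats, by 0.85 and 1.10, and had changes of 0.44 and 0.62 in resistant rats (adjusted p = 0.120 and 0.201).

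**Figure D3:**
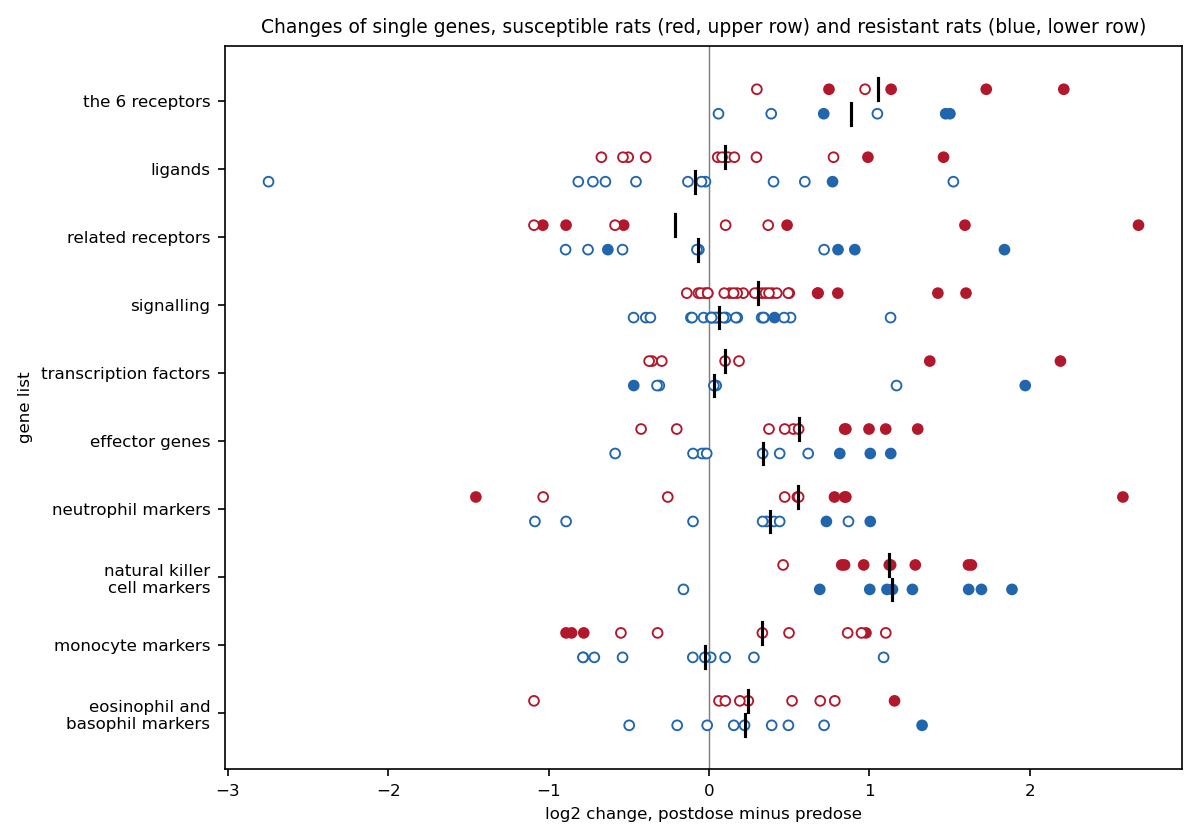
Postdose minus predose difference in log2 signal (horizontal axis) for each gene of the lists named on the vertical axis, with susceptible rats in red above resistant rats in blue; filled points passed an adjusted p under 0.05 and black ticks are medians. The medians of the 6 receptors, 1.05 and 0.88, lie above those of all lists shown but the natural killer cell markers, at 1.12 and 1.14. The genes listed as ligands have medians of 0.10 and -0.09. Cxcr1, near background, supplies a middle value of both receptor medians.

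Some markers of neutrophils and most of natural killer cells also rose after APAP. After dosing, the median log2 difference, susceptible minus resistant, was 0.24 for the neutrophil and -0.14 for the natural killer cell markers. It was 0.42 for the 6 receptors. Of 10 neutrophil markers on the array, of which 4 (Itgam, Mmp8, Mmp9 and Padi4) are also among the effector genes, 5 rose and 1 fell in susceptible rats and 2 rose in resistant rats. S100a8, a calcium-binding protein that neutrophils hold in large amounts, rose by 0.78 (limma adjusted p = 0.00219) in susceptible animals and 0.73 (adjusted p = 0.00394) in resistant animals. S100a9, its partner, rose by 0.55 in susceptible rats (adjusted p = 0.00612), with a value of 0.36 in resistant rats (adjusted p = 0.0836). Il1r2, a decoy receptor of interleukin-1, rose by 2.58 in susceptible rats (adjusted p = 5.12e-05), where resistant rats gave 0.87 (adjusted p = 0.0967). It was the only gene of these lists called between the sub-groups after dosing, at 1.53 higher in susceptible rats (adjusted p = 0.0385). Fcgr3a, an Fc receptor that natural killer cells and monocytes also carry, fell by 1.45 in susceptible rats (adjusted p = 0.0174). Its change in resistant rats was -1.09 (limma adjusted p = 0.0925). The granule genes Mmp8, Mmp9 and Camp did not pass in either sub-group, and Lcn2 was the marker not above background on every array.

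The summed signal of the 10 neutrophil markers was 819461 to 1276143 on susceptible postdose arrays, against 529961 to 668492 on susceptible predose arrays, and 766639 to 934835 on resistant postdose arrays, against 511752 to 729249 on resistant predose arrays. It did not overlap between postdose and predose arrays in either sub-group, but S100a8 and S100a9 made up 75.4% to 90.5% of it on each array. Without these genes, a choice made after seeing the data, the sum of the other 8 markers was 113535 to 287222 on susceptible postdose arrays, against 68849 to 91597 on susceptible predose arrays, and 74345 to 98150 on resistant postdose arrays, against 67600 to 95652 on resistant predose arrays. It thus separated susceptible postdose from susceptible predose blood, and overlapped in resistant rats. Among these 8 markers, Il1r2 had by far the highest mean log2 signal in susceptible postdose blood, 16.85, followed by Itgam at 13.70. The susceptible predose mean of Il1r2 was 14.27, so that this separation leans on Il1r2. A sum without Il1r2 was not taken. On the susceptible postdose arrays the sum of all 10 was highest for replicates 1 and 3, which also had the highest signals of Cxcr2, Csf3r and C5ar1. Of 9 markers of natural killer cells, 8 rose in susceptible and 8 in resistant rats, with median log2 changes of 1.12 and 1.14, above those of the receptors. These were Ncr1, Klrb1a and Klrd1, surface receptors of these cells, Gzma, Gzmb and Prf1, proteins of their cytotoxic granules, Nkg7, and Eomes, a transcription factor, with log2 changes of 0.83 (Klrd1) to 1.64 (Ncr1) in susceptible and 0.69 (Gzmb) to 1.89 (Eomes) in resistant rats. The summed signal of all 9 was 356827 to 575940 on susceptible postdose arrays, against 207648 to 272597 on susceptible predose arrays, and 416796 to 602550 on resistant postdose arrays, against 203724 to 330836 on resistant predose arrays, without overlap. The part of either cell type in the rise of the receptors was not tested. The summed signal of 11 monocyte markers overlapped between postdose and predose arrays in both sub-groups. It was 277342 to 385712 on susceptible postdose arrays, against 293964 to 389505 on susceptible predose arrays, and 209244 to 337282 on resistant postdose arrays, against 262605 to 420307 on resistant predose arrays. Of these 11, Fcgr1a rose by 0.98 in susceptible rats, where Csf1r, Cx3cr1 (fell by 0.78) and Klf4 (fell by 0.86) were lower, and 0 passed in resistant rats. The changes in resistant rats were 0.28 for Fcgr1a, -0.54 for Csf1r, 0.01 for Cx3cr1 and -0.79 for Klf4. For 9 markers of eosinophils and basophils the sum was 8992 to 17485 and 6663 to 10964 in susceptible postdose and predose blood, and 8661 to 10927 and 6321 to 9572 in resistant postdose and predose blood, with 1 marker, Siglec5, higher in each sub-group. Of 5 B cell markers, Cd22, Blnk and Fcer2 fell in susceptible rats, by 0.44, 0.68 and 0.92, and 0 passed in resistant rats. There the changes of these genes were -0.17, -0.44 and -0.33. Of 14 T cell markers, Cd4 fell by 0.67 in susceptible rats and Cd28 by 0.73 in resistant rats. Cd4 changed by -0.44 in resistant rats and Cd28 by -0.45 in susceptible rats, and neither value passed. The difference between the changes passed for 0 of the monocyte, B cell and T cell markers. No marker of platelets or red cells passed, among them Pf4, Tubb1, Hbb and Alas2, those of highest signal.

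**Figure D4:**
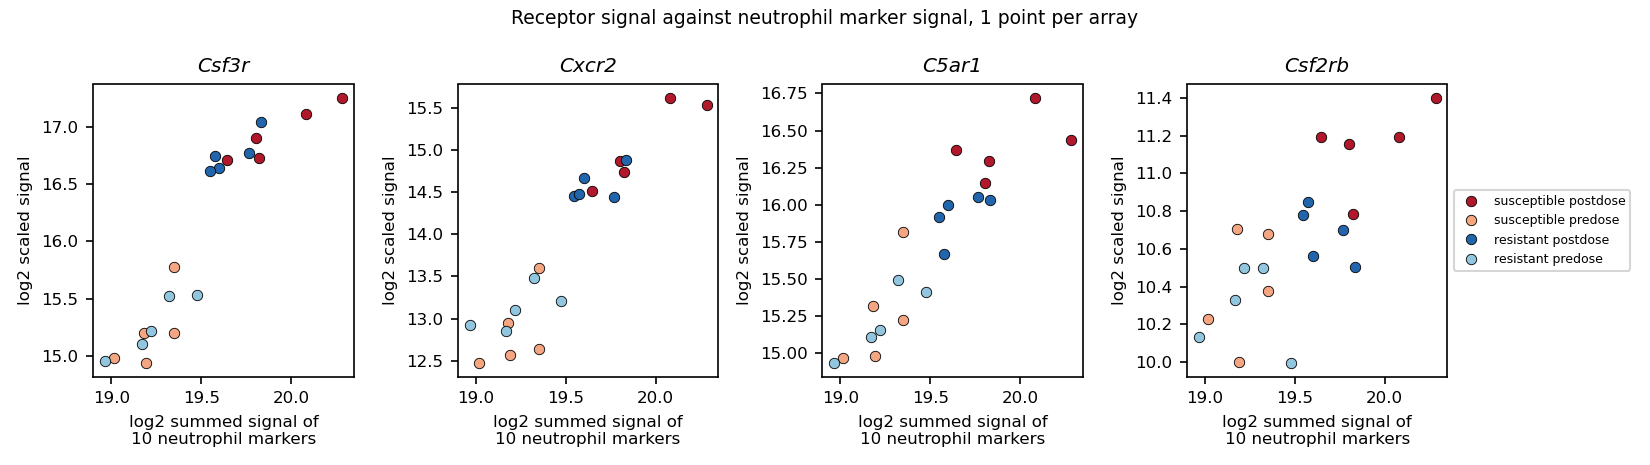
Log2 scaled signal of Csf3r, Cxcr2, C5ar1 and Csf2rb (vertical axes) against the log2 summed signal of 10 neutrophil markers (horizontal axes), 1 point per array. Postdose points lie to the right of and above the predose points of their sub-group for all 4 receptors, for Csf2rb in resistant rats by less than 5 units of signal. The horizontal axis is mostly the signal of S100a8 and S100a9, 75.4% to 90.5% of the sum.

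The genes whose profiles were most like those of the receptors were sought among probe sets with 1 symbol and a mean signal at or above the array median. Likeness was taken as the root mean square difference between log2 profiles, each centred on its own mean over the 20 arrays, where a small value means a close match in shape and size. For Csf3r these were Sbno2, Lrg1 and Antxr2, at 0.17, 0.18 and 0.20, where the profile of Csf3r itself had an SD of 0.86. For Cxcr2 they were Slpi, an inhibitor of neutrophil elastase, Ccr1, a chemokine receptor, and Csf3r, at 0.22, 0.23 and 0.24 (SD of Cxcr2 1.02). Slpi rose by 1.85 (limma adjusted p = 9.25e-05) in susceptible animals and 1.75 (adjusted p = 1.65e-04) in resistant animals. For C5ar1 they were Cklf, Adgre5 and Tnfrsf1a, the main receptor of tumour necrosis factor, at 0.14, 0.16 and 0.16 (SD of C5ar1 0.55). The nearest genes to Csf2rb were Sorl1, Tut7 and R3hdm2 at 0.19 each, and those to Csf2ra were Clec12a, Lsp1 and Lst1 at 0.19, 0.19 and 0.20. The profile of Csf2rb had an SD of 0.40 and that of Csf2ra an SD of 0.41. Csf2rb and Csf2ra lay farther from each other, at 0.40, than Csf2rb lay from C5ar1, at 0.30. Cxcr1 had no close match, its nearest gene, Apol11a, lying at 1.08 where Cxcr1 had an SD of 1.36.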

How the data were processed

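Blood RNA of 20 samples was measured on Affymetrix rat expression arrays. The authors deposited 1 linear intensity value per probe set and array, with array medians of 189 to 224. The methods name ArrayTrack and scaling of each chip to a median of 1000, which the deposited values do not carry, and the software that made the signals is not given in the sources used here. After 57 control probe sets were left out, the signals of the remaining 31042 were brought to an array median of 1000 and taken to log2. A probe set had to reach 100 on at least 1 array of a fit, which left 30747 on 20 arrays and 30416 on the 10 predose arrays.

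Groups were compared with limma 3.58.1 (lmFit and eBayes) in R 4.3.3 with Benjamini-Hochberg adjustment over all probe sets tested. The predose comparison used the predose arrays, and all others used 20 arrays with a common estimate of the spread. Fold changes are ratios of geometric means. Gene symbols came from the platform annotation (20826 probe sets carry 1 symbol, 436 several and 9780 none), updated through gene IDs to GRCr8 for the lists, and each list gene was read from its probe set of highest mean signal. Promoters are RefSeq sequences of GRCr8. On simulated data, checked for susceptible postdose against susceptible predose samples, the fit recovered 86 of 100 changes of 1 and 100 of 100 changes of 2 on the log2 scale among probe sets at or above the array median, with 11 of 197 calls false among 30569 probe sets. The simulated probe sets varied independently of each other, unlike genes of the same blood cells, so that these figures need not hold for the measured arrays.

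The members and lists were chosen with earlier results of these data known. Named genes were all receptors, in each list those past the threshold and, where none passed, the 2 of highest signal, and the 3 genes of most alike profile per receptor. Csf3, Csf2, Cxcl1, Il3ra, the granule genes of neutrophils and the transcription factors that did not pass were named after their values were seen. Also tried were unscaled and quantile-normalized values, looser and stricter filters (none, or 1000 on 5 arrays), fits to a single probe set per gene or to the compared arrays alone, a block for the replicate number, the methods' t-test, and the omission of every array once. The number of arrays limits the precision. Figures were drawn with matplotlib 3.10.9. Serum chemistry and tissue sections were not analysed here.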

Additional observations from a re-analysis of the deposited data

Results flagged for a closer look

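The Csf2ra signal on resistant predose replicate 5, 4512, lay apart from the other 4 resistant predose arrays, which lay between 8603 and 9976. Its gap to the nearest of them took up 0.813 of the log2 range of the group, where 0.710 is the limit for 5 samples. It was 1 of 24 groups examined (6 receptors in 4 groups), and chance alone flags about 1 in 20. Without this array the log2 change of Csf2ra in resistant rats was -0.14, in place of 0.06, and it did not pass the test either way.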

How the results depend on the processing

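The counts of receptors called stayed within 1.5 times the values given under every alternative run: 3 or 4 in susceptible and 2 or 3 in resistant rats after APAP, and 0 in every comparison between the sub-groups. Leaving out any 1 array changed none of these counts (4 and 3). All 6 receptors kept the direction of their change after APAP, except Csf2ra in resistant rats, with log2 changes of -0.14 to 0.24 when 1 array was left out. In the same way, values that had not passed changed sign for Cxcr1 in the difference between the changes (-0.64 to 0.44) and after dosing (-0.089 to 0.74), and before dosing for Csf3r (-0.19 to 0.023), C5ar1 (-0.10 to 0.11), Csf2ra (-0.18 to 0.15) and Cxcr1 (-0.056 to 1.02). The labels do not say whether equal replicate numbers mark the same rat. The correlation of same-numbered deviations over probe sets was -0.03 to 0.05, which cannot settle this. The same number gave the highest correlation for susceptible replicates 4 and 5 and for resistant replicates 3 and 4. With the replicate block, C5ar1 did not pass in resistant rats (adjusted p = 0.0743), no other receptor's call changed, and the probe sets called over the whole array numbered 1290 in susceptible and 970 in resistant rats, against 2048 and 1570 without it. With only the arrays compared these were 910 and 968, and with the methods' t-test after adjustment 578 and 729. They were 1332 without susceptible postdose replicate 3, and 967 and 1046 without resistant predose replicate 3 and resistant postdose replicate 2. The methods' t-test with their fold change called 3 receptors in susceptible and 2 in resistant rats. With the stricter filter Cxcr1 was not tested. Signal close to background limits what can be said of Cxcr1, Cxcl1, Csf3 and Csf2.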
